A study of Mus musculus with 4 samples.

Results

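The genes described here are the Egr, Nr4a and Ier families of early response genes together with Srf, the transcription factor that switches many such genes on. They are Egr1, Egr2, Egr3, Nr4a1, Nr4a2, Nr4a3, Ier2, Ier3, Ier5 and Srf, 10 of the 18193 genes that the array table could name. They were chosen by gene symbol, with earlier results of these data known. Every probe set that the platform annotation paired with one of them alone was taken, which gave 22 of 45101 probe sets. The main value of a gene is its brightest probe set on average. The 4 Affymetrix arrays held RNA of blasts from a murine megakaryoblastic (M7) leukemia that arose by retroviral insertional mutagenesis of Gata1s fetal progenitors, Gata1s being a mutant form of the blood cell factor Gata1. Blasts carrying the virus's GFP reporter were sorted from spleen of mouse 1 and mouse 2 and from peripheral blood of the same 2 mice, without culture or treatment. All arrays carry the leukemia designation T6(6), so mutant Gata1, virus and GFP sort are shared by every sample, and no cells with normal Gata1 were measured here. The labels used here give no strain, age or sex.

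Early response genes are switched on by growth factors, stress or cell contact before any new protein has been made. In the best studied route the kinase ERK activates Elk factors that sit with Srf on serum response elements, and such elements drive Egr1, Egr2, Fos and Ier2. Nr4a genes respond in addition to cyclic AMP through the factor Creb. The Egr proteins are zinc finger factors that bind GC-rich DNA, the Nr4a proteins are orphan nuclear receptors, Ier2 and Ier5 are related nuclear proteins, and Ier3 is an unrelated regulator of survival and ERK signalling. In blood formation, Egr1 holds stem cells in quiescence, loss of Nr4a1 together with Nr4a3 in mice leads to myeloid leukemia, and Srf with its partner Mrtfa is needed for megakaryocytes to mature.

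Promoter sequence from RefSeq (build GRCm38.p6) was at hand for 7 of the 10 genes, all but Egr1, Egr3 and Ier2. The 250 bases before the listed start are shown for 4 genes that represent the patterns found: Ier5, lower in spleen, Nr4a1 and Ier3, close to level, and Srf, slightly higher in spleen. They are written 5′ to 3′ on the strand of the gene. Capitals mark matches, on either strand, to the CArG box that Srf binds, to the core TGACG of Creb sites, to the Egr site GCGNGGGCG or to the Nr4a site AAAGGTCA. No match overlapped another in these 4 windows.
Ier5 promoter, chr1:155099637-155099886, minus strand: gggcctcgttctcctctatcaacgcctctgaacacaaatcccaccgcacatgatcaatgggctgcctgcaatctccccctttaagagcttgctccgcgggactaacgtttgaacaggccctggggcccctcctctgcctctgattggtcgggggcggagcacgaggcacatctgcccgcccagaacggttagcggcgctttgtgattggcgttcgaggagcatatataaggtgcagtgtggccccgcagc
Nr4a1 promoter, chr15:101266596-101266845, plus strand: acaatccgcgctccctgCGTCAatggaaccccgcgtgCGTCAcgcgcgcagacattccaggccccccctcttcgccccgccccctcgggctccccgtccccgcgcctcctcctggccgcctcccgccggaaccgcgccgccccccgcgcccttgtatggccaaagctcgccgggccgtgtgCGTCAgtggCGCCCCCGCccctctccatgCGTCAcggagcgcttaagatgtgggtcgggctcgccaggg
Ier3 promoter, chr17:35821463-35821712, plus strand: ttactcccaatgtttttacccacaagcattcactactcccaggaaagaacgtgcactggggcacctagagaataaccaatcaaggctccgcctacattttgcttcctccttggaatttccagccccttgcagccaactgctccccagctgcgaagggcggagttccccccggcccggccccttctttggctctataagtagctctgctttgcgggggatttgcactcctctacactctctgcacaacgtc
Srf promoter, chr17:46556163-46556412, minus strand: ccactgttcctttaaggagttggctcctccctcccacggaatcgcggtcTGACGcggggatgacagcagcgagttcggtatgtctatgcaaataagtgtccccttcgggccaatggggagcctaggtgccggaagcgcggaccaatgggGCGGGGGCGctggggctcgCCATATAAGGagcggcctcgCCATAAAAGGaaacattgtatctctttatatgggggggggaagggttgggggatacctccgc

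The Srf window held 2 CArG boxes, 1 TGACG and 1 Egr site, and the Nr4a1 window held 4 TGACG and 1 Egr site. The Ier5 and Ier3 windows held none of the 4 motifs, although Ier5 was lower in spleen and Ier3 differed little. Among the windows not shown, Nr4a2 held 4 TGACG and 1 Egr site, and Nr4a3 held 4 TGACG. A CArG box was found in 4 of 5 listed Egr2 windows. Some of these overlap and share the same box, and the overlapping ones also held 2 TGACG each. Of all 32851 promoter windows of this length, 1.47% held a CArG box, 17.8% TGACG, 4.7% the Egr site and 1.34% AAAGGTCA. A match describes letters in a window and not a bound factor.

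Egr1, Ier2 and Ier5 were lower in spleen blasts than in blood blasts in both mice, by 1.7-fold to 3.7-fold within an animal. Nr4a1 and Ier3 differed by at most 1.11-fold, and Srf was the one gene of the group that was higher in spleen in both mice. Egr2 and Egr3 were near 0, and the main probe sets of Nr4a2 and Nr4a3 went opposite ways in the mice. None of the 8 tested genes passed limma's test over all genes. That test called 0 of 11614 genes (0%) at an adjusted p under 0.05, with 1443 genes at an unadjusted p under 0.05. Only genes at least as bright as the middle probe set of the array, at an intensity of 106, were tested. A difference is on the scale log2(intensity + 16), spleen minus blood.

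**Figure D1:**
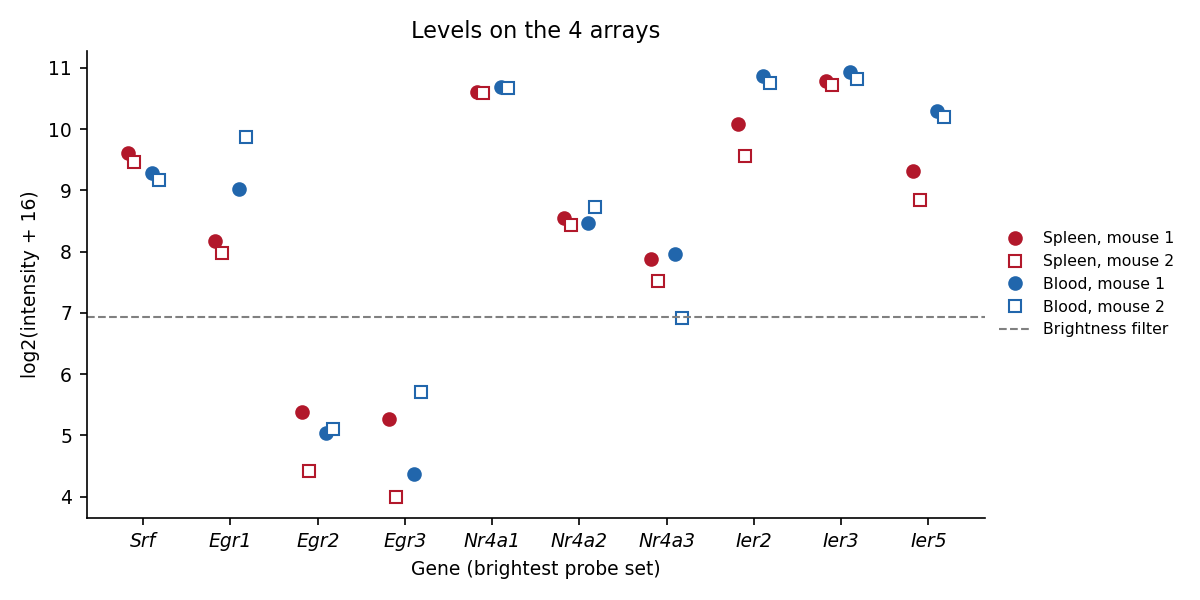
Levels of the 10 genes on the 4 arrays, as log2(intensity + 16) of the brightest probe set, with spleen (red) left of blood (blue), filled circles for mouse 1 and open squares for mouse 2. The dashed line is the brightness filter at an intensity of 106. Both spleen points of Egr1, Ier2 and Ier5 lie well below their blood points, Srf shows the reverse by a small margin, and Egr2 and Egr3 lie below the filter.

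Srf is known to act upstream of Egr1, Egr2 and Ier2 in the group. Its main probe set had intensities of 763 in spleen of mouse 1 and 688 in spleen of mouse 2, against 607 and 561 in their blood. The tissues did not overlap, and the log2 difference was 0.32 in mouse 1 and 0.29 in mouse 2. The fitted difference was 0.30 ± 0.12 (SE, 2 arrays per tissue) with a limma adjusted p of 0.392. A second, dimmer probe set of Srf had 164 and 179 in spleen, against 146 and 179 in blood, so it was level in mouse 2, and with the mean of both probe sets the difference was 0.19.

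Egr1, an activator and repressor of growth control genes, was read by a single probe set. Its intensities were 271 in spleen of mouse 1 and 236 in spleen of mouse 2, against 505 and 916 in their blood. The 2 spleen arrays lay close together and below both blood arrays, which lay far apart. Spleen held 53.7% of the blood intensity in mouse 1 and 25.8% in mouse 2, log2 differences of -0.86 and -1.89. The fit gave -1.37 ± 0.27 (SE) with a limma adjusted p of 0.185. Without blood replicate 1 the difference was -1.79 and without blood replicate 2 it was -0.95.

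Egr2 and Egr3 bind the same GC-rich sites as Egr1 and are best known from nerve and lymphocyte development. Egr2's brighter probe set had 25.7 and 5.38 in spleen, against 16.8 and 18.4 in blood. Egr3's had 22.7 and -6.68 in spleen, against 4.59 and 36.3 in blood. All of these lie far below the filter, their second probe sets stood between -6.71 and 8.22, and neither gene was tested. Of these Egr genes, only Egr1 therefore had a level above the filter on these arrays. Egr4, the remaining gene of the family, was also below it, between 84.7 and 93.5.

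In neither mouse was any of the 3 Nr4a genes lower in spleen by as much as Egr1. Nr4a1, also called Nur77, had 1541 and 1528 in spleen, against 1630 and 1620 in blood. The tissues did not overlap, yet the gap was small, with spleen at 94.6% of blood in mouse 1 and 94.3% in mouse 2. The fitted difference was -0.08 ± 0.11 (SE), with a 95% interval from -0.35 to 0.18 and a limma adjusted p of 0.793. The interval reaches neither the Egr1 nor the Ier5 estimate, but a difference between genes was not tested.

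Nr4a2, also called Nurr1, had 357 and 331 in spleen, against 338 and 407 in blood, and the tissues overlapped. Its difference was 0.08 in mouse 1 and -0.28 in mouse 2, and the fit gave -0.10 ± 0.13 (SE) with a limma adjusted p of 0.789. Of the 5 other Nr4a2 probe sets, 1 was above the filter, with 91.4 and 116 in spleen, against 102 and 132 in blood. It was slightly lower in spleen in both mice, with log2 differences of -0.14 and -0.16, as were 2 of the 4 dimmer ones, so the probe sets disagree. Nr4a3, also called Nor1, had 220 and 168 in spleen, against 232 and 104 in blood. The 4 values interleave, with the blood of mouse 2 lowest, and the difference was -0.07 in mouse 1 and 0.61 in mouse 2. The fit gave 0.27 ± 0.34 (SE) with a limma adjusted p of 0.778, and its other probe sets were both below the filter. The brighter of them differed by -0.10 and 0.06 in mouse 1 and mouse 2, the dimmer by -0.11 and 0.57.

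The Ier genes divided. Ier2, also called Pip92, had 1075 and 743 in spleen, against 1862 and 1705 in blood. The spleen arrays lay below both blood arrays, at 57.7% of blood in mouse 1 and 43.6% in mouse 2. The log2 differences were -0.78 and -1.18, and the fit gave -0.98 ± 0.19 (SE) with a limma adjusted p of 0.180. Ier5, which binds the phosphatase PP2A and the heat shock factor Hsf1, had 623 and 444 in spleen, against 1239 and 1165 in blood. Again the tissues were well apart, with spleen at 50.3% of blood in mouse 1 and 38.1% in mouse 2. The log2 differences were -0.97 and -1.36, and the fit gave -1.17 ± 0.18 (SE) with a limma adjusted p of 0.140.

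Ier5 was the nearest of the group to the threshold. Over the 14 alternative settings its adjusted p ran from 0.046 to 0.693, and it was under the threshold with an intensity trend in limma's prior (0.049) and without spleen replicate 1 (0.046). Its second probe set, just above the filter, had 85.1 and 84.5 in spleen, against 181 and 136 in blood, and so kept the direction in both mice. The dimmest, just below the filter, had 74.3 and 121 in spleen, against 109 and 114 in blood, and did not. With the mean of the 3 probe sets the difference was -0.71.

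Ier3, also called Iex-1, shares only its naming with the other Ier genes. It had 1742 and 1678 in spleen, against 1941 and 1792 in blood. The tissues did not overlap, but the differences were -0.16 and -0.09, and the fit gave -0.12 ± 0.11 (SE) with a 95% interval from -0.40 to 0.16 and a limma adjusted p of 0.688. With Nr4a1 it formed the closest pair among the 8 tested genes, at a distance of 0.09 between their centred log2 values over the 4 arrays. The next closest pair was Ier2 and Ier5, at 0.19, while Egr1 stood 0.71 from Ier5 and 0.82 from Ier2.

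**Figure D2:**
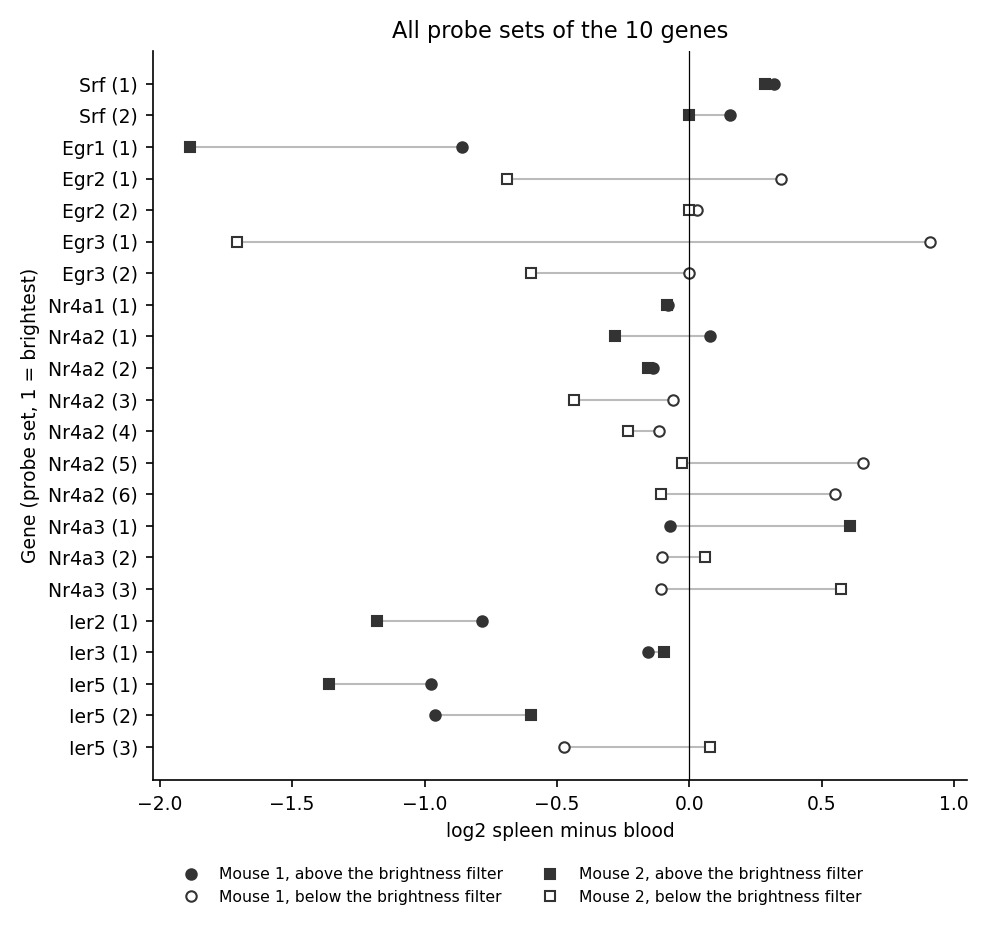
Log2 difference, spleen minus blood, of all 22 probe sets of the 10 genes, numbered by brightness within a gene, with circles for mouse 1 and squares for mouse 2 joined by a line. Filled symbols mark probe sets above the brightness filter. Egr1, Ier2 and the 2 brighter probe sets of Ier5 lie left of 0 in both mice, and the open symbols of Egr2, Egr3 and Nr4a2 scatter on both sides.

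Read against the array as a whole, 5 of the 8 tested genes had both spleen arrays below both blood arrays (Egr1, Nr4a1, Ier2, Ier3 and Ier5), where 17.6% of all tested genes did. The same 5 were lower in both mice, where 25.1% were. Srf alone was higher in both mice, where 38.5% of all tested genes were, and had both spleen arrays above both blood arrays, where 27.5% did. Nr4a2 and Nr4a3 went opposite ways in the mice, where 36.4% did. An unadjusted limma p under 0.05 with the lower value in spleen was reached by Egr1, Ier2 and Ier5, where 4.31% of genes reached it. With the higher value in spleen it was reached by Srf, where 8.12% did. The median difference of the 8 genes was -0.12 in mouse 1 and -0.19 in mouse 2, beside 0.07 and 0.01 over all tested genes. These medians are taken over unlike genes. Egr1, Ier2 and Ier5 were lower, Srf was higher, Nr4a1 and Ier3 were near level, and Nr4a2 and Nr4a3 were mixed.

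Ranked by the lesser of their 2 within-mouse differences toward lower spleen values, Ier5 stood at place 15, Egr1 at 21 and Ier2 at 29 of the 11614 tested genes. Ier3 stood at 1528 and Nr4a1 at 1702 by the same measure. At least 2-fold lower in both mice were 0 of the 8 genes, where 0.103% of all tested genes were. Ier5 missed that mark in mouse 1 by a small margin, at 1.96-fold.

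**Figure D3:**
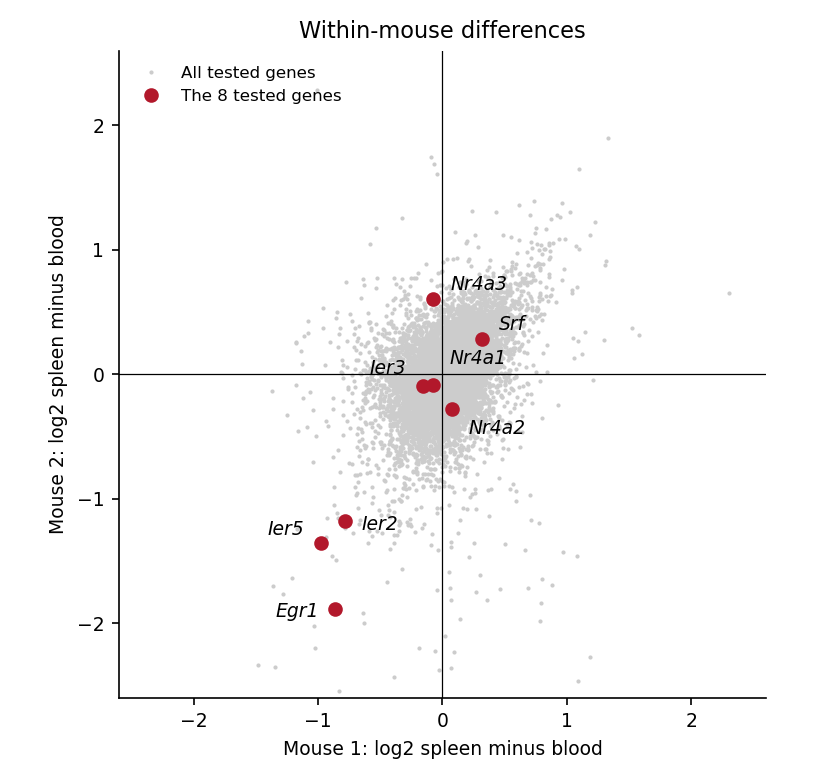
Log2 difference, spleen minus blood, in mouse 1 (horizontal) and mouse 2 (vertical) for the 8 tested genes (red, named) over all 11614 tested genes (grey). Ier5, Ier2 and Egr1 lie at the lower left edge of the cloud, the other 5 lie within it, and 29 genes fall outside the axes.

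Egr1, Ier2 and Ier5 all had the wider gap between tissues in mouse 2, but not on the same array. On the log2 scale, mouse 2 minus mouse 1 in spleen was -0.19 for Egr1, -0.52 for Ier2 and -0.47 for Ier5. In blood it was 0.84 for Egr1, -0.13 for Ier2 and -0.09 for Ier5. So the wider gap of mouse 2 lay with a lower spleen value for Ier2 and Ier5 and with a higher blood value for Egr1. Each of these is a difference of 1 array from 1 array and was not tested. Spleen of mouse 2 was the lowest array for 6 of the 8 tested genes, all but Srf and Nr4a3, where it was lowest for 28.8% of all tested genes. It was also below the others for Egr2 and Egr3.

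Other early response genes, those of AP-1 and a list of phosphatases, mRNA decay factors and Krüppel-like factors among others, were mostly lower in spleen too. These lists were chosen with earlier results of these data known, so their counts are no independent support. Of 24 tested genes on these lists, 21 were lower in spleen in both mice, where 25.1% of all tested genes were, and 2 were higher, where 38.5% were, with medians of -0.43 in mouse 1 and -1.16 in mouse 2. With limma 0 of them passed over all genes, and 15 had an unadjusted p under 0.05, all 15 lower, where 4.31% of all tested genes were. The AP-1 subunits Junb and Jund differed by -0.60 and -0.77 in mouse 1 and by -1.35 and -1.21 in mouse 2, sizes close to those of Ier2 and Ier5. Fos differed by -1.91 and -5.50, with an intensity of 3.26 in spleen of mouse 2 that leaves its size to the offset. The phosphatase gene Dusp1 differed by -1.88 and -3.97, the Krüppel-like factor Klf6 by -1.48 and -2.34, and the activation antigen Cd69 by -1.34 and -2.35. All of these exceeded Egr1, Ier2 and Ier5 in mouse 1 except Junb and Jund. The 2 genes higher in spleen in both mice, named after their values were seen, were Arc at 0.33 and 0.03 and Ccn1 at 0.03 and 0.17.

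Of 7 tested Srf partners, 2 were lower and 3 higher in both mice, with medians of 0.13 and -0.01. These shares lie near those of all tested genes, 25.1% lower and 38.5% higher in both mice. Elk1, the ERK-activated partner, had 407 and 317 in spleen, against 281 and 264 in blood. Its difference was 0.38 ± 0.15 (SE) with a limma adjusted p of 0.386. Mrtfa, the actin-sensing partner, differed by 0.03 in mouse 1 and 0.02 in mouse 2, and the Elk relative Elk4 by -0.06 and -0.43. Of 10 tested Srf targets of the actin cytoskeleton, 2 were lower and 5 higher in both mice, beside the same 25.1% and 38.5% of all tested genes, with medians of 0.11 and 0.03. When each gene's probe sets were averaged, 4 were lower, but the share of all tested genes was not counted under that rule. Vcl, which anchors actin at adhesions, differed by 0.34 and 0.26, the actin crosslinker Flna by -0.20 and -0.33, and the LIM protein Fhl1 by -1.17 and -1.25. Adjusted p by limma was 0.431 for Vcl, 0.421 for Flna and 0.140 for Fhl1.

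Of 14 tested genes of ERK and CREB signalling, 3 were lower and 5 higher in both mice, shares near the 25.1% and 38.5% of all tested genes, with medians of 0.09 and -0.03. With quantile normalization 5 were lower, but the share of all tested genes was not counted under that scaling. Crtc2, a coactivator of Creb, had 132 and 135 in spleen, against 256 and 223 in blood, well apart. Its difference was -0.77 ± 0.12 (SE) with a limma adjusted p of 0.144, while its relative Crtc1 differed by -0.19 in each mouse. The ERK-activated kinase Rps6ka5, which phosphorylates Creb, had 198 and 163 in spleen, against 147 and 91.0 in blood. Nab1, a corepressor that binds Egr proteins, differed by 0.01 and 0.07, and Rxrb, a receptor of the retinoid X class that pairs with Nr4a1 and Nr4a2, by 0.21 and 0.08. The relatives Ier5l and Ier3ip1 went opposite ways in the mice. None of these lists held a gene that passed over all genes.

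**Figure D4:**
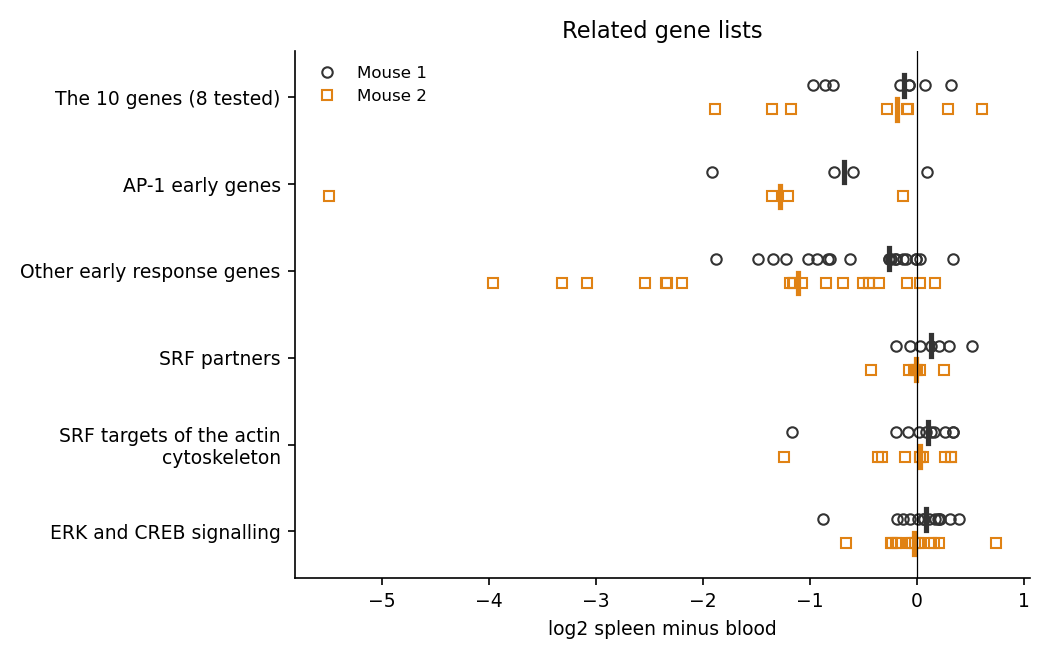
Log2 difference, spleen minus blood, of each tested gene of the group and of 5 related lists, with circles for mouse 1, squares for mouse 2 and bars at the medians. The AP-1 and other early response genes spread far to the left in both mice, and the medians of Srf partners, Srf targets and ERK and CREB genes lie between -0.03 and 0.13.

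The median of the 8 tested genes' centred log2 values was -0.04 in spleen and 0.19 in blood of mouse 1, and -0.10 in spleen and 0.11 in blood of mouse 2. The tested genes nearest to this profile, by Euclidean distance over the 4 arrays, were Fryl, Trem2, 4930513N10Rik, Dync2h1 and Ikzf4, at distances from 0.087 to 0.089. Fryl differed by -0.21 and -0.20 and Trem2 by -0.21 and -0.18. The profile is a shallow one, a median on each array over genes that differ, and these 5 genes share its shape over 4 arrays only.

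The arrays were alike in brightness, with medians from 103.7 to 110.6. Megakaryocyte markers ranged from Pf4, between 7507 and 8680, to Treml1, with 232 and 319 in spleen, against 82.8 and 73.8 in blood. Both blood values of Treml1 lie below the filter. Of 7 tested megakaryocyte and platelet markers, 6 were higher in spleen in both mice, where 38.5% of all tested genes were, and their summed intensity was 18787 and 20474 in spleen, against 16259 and 16304 in blood. Markers of granulocytes, which the GFP sort should remove unless they carry the virus, were mostly lower in spleen too. Of 9 tested, 8 were lower in spleen in both mice, where 25.1% of all tested genes were, and the sum over all 13 named was 4491 and 1407 in spleen, against 7136 and 17550 in blood. The blood sum was higher in mouse 2, as was Egr1 in blood, while Ier2 and Ier5 were slightly lower there. What part granulocyte RNA has in the lower values was not tested. In bulk RNA, fewer cells of a type and less RNA per cell cannot be told apart. Among other leukocyte markers, macrophage and monocyte genes had 4069 and 2731 in spleen, against 3350 and 7117 in blood, and T and NK cell genes 8775 and 5437, against 7365 and 10492. No marker of any list was at or below 0 on every array, and C1qa of macrophages was at or below 0 on all but the spleen array of mouse 1.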

How the data were processed

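Per the labels, biotinylated cRNA was made from Trizol-extracted RNA with Affymetrix's standard protocol. The deposited table holds linear intensities, 1 per probe set. The authors' summary of probes, background correction and scaling are not given in the sources read, and 1.60% to 2.17% of an array's values were below 0. Here log2(intensity + 16) was used with negative intensities set to 0, so folds of dim genes are understated. The floor was added to the planned log2 scale because negative values occur.

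Of 45101 probe sets, 34945 had 1 gene symbol. For 34741 of these the symbol was taken by Entrez identifier from RefSeq's table of assembly GRCm38.p6, whether or not it changed. Each gene took its brightest probe set, and 11614 of 18193 genes were tested. The tissues were compared in limma 3.58.1, R 4.3.3 (lmFit and eBayes, two-sided, tissue as the only term), with Benjamini-Hochberg adjustment over all tested genes at 0.05. The test was tried on simulated data with planted changes, but how many it recovered is not given here. No label says the 2 mice received separate primary leukemias, so p-values speak for these 4 arrays, whose number limits the precision. Each p-value sets a tissue difference against the spread of arrays within a tissue. By its prior, limma draws that spread toward a value shared over all tested genes.

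The labels give both tissues of an animal, so the mouse number is a true pairing. The mouse 2 minus mouse 1 difference correlated between spleen and blood at r = 0.10 across genes, which are not replicates. The genes and lists were chosen with earlier results of these data known, and lists that repeat those results are no independent support. Named from each related list were up to 3 tested genes whose lesser within-mouse difference was largest, given one sign, and the 5 genes nearest the group's profile; other named genes stand as examples of a count. Listed genes without a named probe set were not analysed here. Alternatives were scaling, offset, filter, probe set rule, variance prior, mouse as a block and leaving out each array.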

Additional observations from a re-analysis of the deposited data

Results flagged for a closer look

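Within-mouse differences of opposite direction stood out for 4 of the 10 genes. Each mouse has 1 array per tissue, so the difference between the mice was not tested, and 36.4% of all tested genes also went opposite ways. Taking the spleen minus blood difference of mouse 1 from the one of mouse 2 gave -2.62 for Egr3 and -1.03 for Egr2, both near 0 in intensity, where the value rests on the offset. It gave -0.36 for Nr4a2 and 0.68 for Nr4a3.

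Summed intensities of marker lists also went opposite ways in the mice, untested as well. On the log2 scale, spleen over blood in mouse 2 minus that in mouse 1 was -1.66 for macrophage and monocyte genes, -1.20 for T and NK cell genes, -1.78 for MHC class II genes, -0.23 for B and plasma cell genes and -0.11 for erythroid genes.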

How the results depend on the processing

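Over the 14 alternative settings Egr1, Nr4a1, Ier2, Ier3, Ier5 and Srf kept their direction. The differences ran from -1.79 to -0.95 for Egr1, from -1.24 to -0.72 for Ier2, from -1.40 to -0.71 for Ier5 and from 0.19 to 0.38 for Srf. Nr4a2 was 0.025 and Nr4a3 -0.25 without blood replicate 2, opposite to their values over all arrays; leaving out 1 array ran from -0.23 to 0.025 for Nr4a2 and from -0.25 to 0.79 for Nr4a3. The number of genes called over all tested genes was 45 with an intensity trend in the prior, 22 lower and 23 higher, and between 0 and 20 when 1 array was left out, the 20 arising without spleen replicate 1, where the lone spleen array is assumed to vary like the blood pair. It was 0 in the other alternatives, including the replicate block for mouse, where 1812 genes had an unadjusted p under 0.05 and the smallest adjusted p was 0.173; the block changed no call. Among the 8 tested genes of the group, 1 was at least 2-fold lower in both mice with quantile normalization, against 0 with the deposited scaling. The share of all tested genes at that mark was not counted with quantile normalization, so a general shift cannot be told apart. Of the related lists, lower counts in both mice also moved for Srf partners, from 2 to 1 with quantile normalization and with centred arrays, and for Nr4a partners, from 0 to 1 with quantile normalization. These moved counts also have no share of all tested genes under the same setting beside them. The causes were not tested. Counts within each mouse have no value when an array is left out. Egr2 and Egr3 lie too near background for a direction.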
